A study of Mus musculus with 8 samples.

Results

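Fc receptors, Trem receptors, Siglecs, CD300 receptors and the paired receptors that work like them are surface proteins with which myeloid cells read antibodies, lipids, sialic acids, dying cells and markers of self. The set described here holds 38 mouse genes, the receptors of these families with the adaptors, the kinase and the phosphatase that carry their signals, taken by symbol from the array's RefSeq accessions with 1 probe per gene. A probe was matched for 34 of the 38 genes, and 31 of them were bright enough to be tested, of 17301 genes tested on the array. Pcgf1 was knocked down with an shRNA in 4 cultures, a control shRNA was given to 4 others, and each of 4 mice supplied 1 culture of each kind. All the mice, controls included, carried the Runx1 Δ/Δ genotype, and their strain was mixed C57Bl/6 and 129SvJ; their age, and the promoter that drives the recombinase behind the deletion, are not given in the sources used here. Bone marrow was depleted of mature lineages, kept for 2 days with SCF, Flt3 ligand, IL-11 and IL-3, transduced with a retroviral pRS vector, selected with puromycin for 36 h and read on one-colour Agilent arrays. The number of hairpins behind the Pcgf1 shRNA is likewise not given in the sources used here.

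Activating members of these families have short tails and signal through partner chains, such as the Fc receptor gamma chain Fcer1g, Tyrobp (DAP12) and Hcst (DAP10), which carry tyrosine motifs. In Fcer1g and Tyrobp this is the immunoreceptor tyrosine-based activation motif (ITAM), which recruits the kinase Syk, whereas Hcst carries a motif for phosphoinositide 3-kinase. Most inhibitory members carry an immunoreceptor tyrosine-based inhibitory motif (ITIM) in their own tail, which recruits phosphatases such as Ptpn6 (SHP-1) or Inpp5d. Many of the genes lie in tandem in the genome as activating and inhibitory pairs, and they are best known from monocytes, macrophages, granulocytes, mast cells and dendritic cells. Pcgf1, the target of the shRNA, is a subunit of a variant Polycomb repressive complex that marks histone H2A at CpG-rich promoters.

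The target checked the labels. Values are log2 signals relative to the 75th percentile of each array, so that 0 is a fairly bright spot, and a difference is the Pcgf1 shRNA value minus the control value. Pcgf1 read −1.63, −1.64, −1.74 and −1.35 in the Pcgf1 shRNA cultures of mice 1 to 4, against −0.24, −0.23, −0.45 and −0.01 in their control cultures. The 2 groups did not overlap, and the knocked-down cultures kept 37.8% to 41.0% of the signal of the same mouse's control (log2 difference −1.36 ± 0.12 SE, adjusted p 0.0197, limma; exact permutation p 0.0286, two-sided, the smallest that 4 against 4 arrays can give). Of the markers of the labelled stem and progenitor cells 9 of 10 were measured, and so were 14 of 16 monocyte and macrophage and 13 of 16 neutrophil markers; of the B cell markers 4 of 9 and of the T and NK cell markers 4 of 10 were measured. Each array had 54.8% to 62.0% of its 43379 spots well above background and no saturated spot, and the number of arrays limits the precision.

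No member passed the test across all genes in the comparison of the 4 Pcgf1 shRNA with the 4 control cultures, where 0.763% of the 17301 genes passed (limma, adjusted p 0.05). The unadjusted p was below 0.05 for 1 member, the inhibitory receptor Pirb, which is 3.23% of the members against 12.2% of all genes tested. With mouse as a block, which sets each Pcgf1 shRNA culture against the control culture of the same animal, 2 of the 31 members were lower, Sirpa and Treml4, and none was higher (13 lower and 1 higher at an unadjusted p under 0.05, or 41.9% and 3.23% of members, against 12.6% and 10.9% of all genes). The same fit called 2.42% of 17300 genes lower and 2.91% higher, so that the members' 6.45% rests on 2 genes. Groups did not overlap for 0 of 31 members and for 7.16% of 17252 genes with a value on every array. The groups thus overlapped for every tested member, also for those whose direction was shared by all 4 mice.

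Within mice, 14 of the 31 members (45.2%) were lower in the Pcgf1 shRNA culture of all 4 animals, where 16.2% of 17252 genes were. Fcgr2b alone among the members was higher in all 4, where 15.6% of genes were. The 14 genes were Fcgr1, Fcer1g, Tyrobp, Ptpn6, Trem2, Treml4, Cd300a, Cd300lf, Siglecg, Pirb, Sirpa, Pilra, Pilrb1 and Pilrb2. They hold activating and inhibitory receptors, adaptors and the phosphatase alike. The median log2 difference over the 31 members was −0.17, against 0.00 over all genes tested, and 20 of the 31 lay below 0, where 49.5% of all genes did. By mouse the members' median was −0.18, −0.22, −0.34 and −0.09 in mice 1 to 4, while that of all genes lay between −0.05 and 0.04. Mouse 3 showed the largest shift and mouse 4 the smallest.

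**Figure D1:**
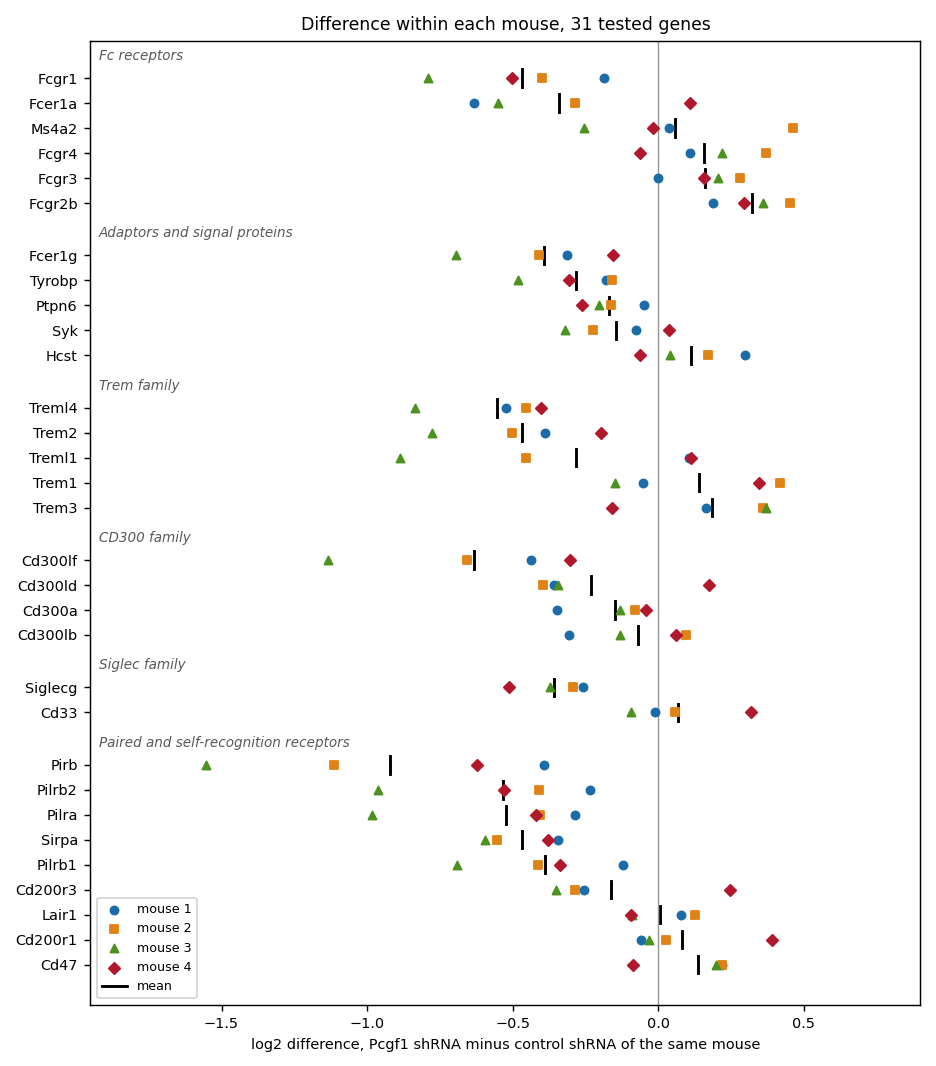
Log2 difference between the Pcgf1 shRNA and the control shRNA culture of each mouse (1 symbol per mouse) for the 31 tested genes by family, with the mean as a bar. For 14 genes all 4 symbols lie left of 0, for Fcgr2b all 4 lie right of 0, and the mean ranges from −0.92 (Pirb) to 0.32 (Fcgr2b).

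Paired and self-recognition receptors had the lowest median of the families, −0.39 over 9 tested genes. Pirb, an inhibitory receptor for MHC class I that uses Ptpn6, read 5.20, 4.59, 3.93 and 4.08 in the Pcgf1 shRNA cultures of mice 1 to 4, against 5.59, 5.70, 5.48 and 4.70 in their control cultures. Every mouse was lower with the Pcgf1 shRNA, but the knocked-down culture of mouse 1 lay above the control of mouse 4, so the groups overlapped. The log2 difference was −0.92 (95% interval −1.65 to −0.19), or 52.9% of the control signal, with an adjusted p of 0.289 and of 0.0552 with mouse as a block. It was the largest difference among the 31 members and reached −1.55 in mouse 3, against −0.39 in mouse 1. With each array weighted by its own precision, Pirb passed the test (−0.94, adjusted p 0.038). Pira genes are close relatives of Pirb, and 1 probe may not separate them.

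Sirpa is the inhibitory receptor that reads CD47 on other cells, the signal that restrains phagocytosis. In the Pcgf1 shRNA cultures of mice 1 to 4 it read 4.95, 4.75, 4.56 and 4.02, against 5.30, 5.30, 5.16 and 4.40 in the controls. Each knocked-down culture was dimmer than its own control by a similar step, −0.35 to −0.60, while mouse 4 lay below the other mice in both groups. The difference was −0.47 ± 0.26 (SE, adjusted p 0.528) without a block, and the blocked fit alone called it (adjusted p 0.0334); the 2 slides, with 2 mice each, gave −0.45 and −0.49. Leaving out any 1 mouse ended the blocked call (adjusted p 0.068 to 0.18), though without mouse 2 that fit called 0 of 17300 genes. Its ligand Cd47 read 5.74, 5.82, 5.89 and 5.56 with the Pcgf1 shRNA and 5.52, 5.60, 5.69 and 5.65 with the control, a difference of 0.14 that was positive in 3 of 4 mice and did not pass (adjusted p 0.610). Sirpb genes resemble Sirpa, and their probes may not be separate.

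Pilra, an inhibitory receptor for sialylated glycoproteins, and its activating partners Pilrb1 and Pilrb2, which signal through Tyrobp, lie next to each other and were lower in all 4 mice. Pilra read 1.98, 1.84, 1.61 and 1.03 in the Pcgf1 shRNA cultures, against 2.27, 2.25, 2.60 and 1.45 in the controls. The values for Pilrb2 were 0.19, 0.06, −0.24 and −0.83 with the Pcgf1 shRNA and 0.42, 0.47, 0.72 and −0.30 with the control. In both genes mouse 3 had the highest control and the widest step, and the groups overlapped. The mean differences were −0.52 for Pilra, −0.39 for Pilrb1 and −0.53 for Pilrb2, and with mouse as a block the adjusted p was 0.075, 0.0938 and 0.0718. Pilrb1 and Pilrb2 are near-identical copies, so their 2 probes may read each other's transcripts. A dimmer probe of Pilrb2 did not read lower with the Pcgf1 shRNA in mouse 4 (−3.359 against −3.375). Lair1, an inhibitory receptor for collagen, Cd200r1, the inhibitory receptor for CD200, and Cd200r3, an activating relative found on basophils and mast cells, differed by 0.00, 0.08 and −0.16, each with mice on both sides of 0.

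The Trem family had a median of −0.28 over 5 tested genes, and its members did not share a direction. Treml4, a receptor for dying cells on macrophages and dendritic cells that signals through Tyrobp, read 1.50, 1.51, 1.20 and 0.53 with the Pcgf1 shRNA, against 2.02, 1.97, 2.04 and 0.93 with the control. The controls of mice 1 to 3 lay close together and above all the knocked-down cultures, and mouse 4 was low in both groups. The difference was −0.55 ± 0.31 (SE, adjusted p 0.533), or 68.1% of control, and −0.49 and −0.62 on the 2 slides; it passed with mouse as a block (adjusted p 0.0346), a call that was lost when any 1 mouse was left out (adjusted p 0.069 to 0.14). Without mouse 4 and with no block the difference was −0.60 and passed (adjusted p 0.0471). Trem2, a lipid and lipoprotein receptor of macrophages and microglia, read 2.89, 3.12, 2.67 and 2.16 with the Pcgf1 shRNA, against 3.28, 3.62, 3.44 and 2.36 with the control. It was dimmer in each knocked-down culture, with differences of −0.78 to −0.20, with an adjusted p of 0.595, or 0.0671 with the block.

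Trem1, which amplifies neutrophil and monocyte activation, and Trem3, an activating receptor of mouse macrophages, differed by 0.14 and 0.18. Both spanned 0 across mice, Trem1 from −0.15 to 0.42 and Trem3 from −0.16 to 0.37. Treml1 is a platelet and megakaryocyte protein that, unlike most of its relatives, carries an ITIM. It read 4.43, 4.01, 3.50 and 5.44 in the Pcgf1 shRNA cultures, against 4.33, 4.46, 4.39 and 5.33 in the controls. Mouse 4 was the highest in both groups, and the differences ran from −0.89 in mouse 3 to 0.11 in mouse 4, so no common direction was seen.

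Promoter sequence was compared because Pcgf1 complexes bind CpG-rich promoters and because most of these genes are expressed in myeloid cells. The 250 bases before the start, from RefSeq's annotation of GRCm38.p6, were found for 32 of the 38 members. A median of 2 CpG sites lay in the members' windows, against 6 over 27025 genes, and 2 of the 32 (6.25%), Cd47 and Syk, held at least 10 CpG sites, against 38.2% of all genes. The letters GAGGAA, a core of sites of the myeloid factor PU.1, stood on either strand in 17 of the 32 windows (53.1%), against 23.1% of all genes, and TGTGGT, a core of RUNX sites, in 8 (25%), against 14.2%, and no window printed here holds both. GAGGAA was present in 8 of 12 windows of members lower in every mouse and in 8 of 15 windows of the other tested members, a split made after their values were seen. Shown are 3 members that were lower in every mouse, from 3 chromosomes and 3 families, and Fcgr2b, the member that was higher in every mouse, each 5′ to 3′ on the gene's strand, with GAGGAA, or TTCCTC where it lies on the other strand, in capitals.
Treml4 promoter, GRCm38.p6, chr17:48264045-48264294, plus strand: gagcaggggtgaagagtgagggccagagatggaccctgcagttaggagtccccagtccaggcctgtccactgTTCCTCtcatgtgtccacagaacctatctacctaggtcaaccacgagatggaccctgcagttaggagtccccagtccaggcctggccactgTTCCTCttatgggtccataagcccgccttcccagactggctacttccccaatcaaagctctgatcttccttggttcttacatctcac
Pirb promoter, GRCm38.p6, chr7:3720383-3720632, minus strand: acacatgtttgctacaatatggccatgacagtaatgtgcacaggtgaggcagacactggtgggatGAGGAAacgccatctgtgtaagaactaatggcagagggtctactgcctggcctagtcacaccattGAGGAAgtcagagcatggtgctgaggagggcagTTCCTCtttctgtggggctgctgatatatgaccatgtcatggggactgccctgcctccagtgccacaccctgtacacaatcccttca
Fcgr1 promoter, GRCm38.p6, chr3:96293970-96294219, minus strand: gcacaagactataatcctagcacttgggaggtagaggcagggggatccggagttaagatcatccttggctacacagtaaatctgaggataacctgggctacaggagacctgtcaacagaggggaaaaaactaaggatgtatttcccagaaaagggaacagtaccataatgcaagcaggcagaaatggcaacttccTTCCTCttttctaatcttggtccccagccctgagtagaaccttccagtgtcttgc
Fcgr2b promoter, GRCm38.p6, chr1:170976072-170976321, minus strand: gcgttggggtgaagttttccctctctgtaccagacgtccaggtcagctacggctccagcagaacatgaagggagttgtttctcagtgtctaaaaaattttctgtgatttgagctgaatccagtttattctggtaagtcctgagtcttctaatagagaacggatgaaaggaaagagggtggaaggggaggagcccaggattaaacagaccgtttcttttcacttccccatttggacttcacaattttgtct
The windows hold 2 matches in Treml4, 3 in Pirb, 1 in Fcgr1 and 0 in Fcgr2b, and no TGTGGT. The printed windows do not stand for the rest. Fcer1g, Ptpn6, Pilrb1 and Pilrb2 were lower in every mouse and have no GAGGAA in their windows. Fcgr3, Fcgr4, Trem1, Cd33 and Lair1 have it, with mean differences above 0. A match describes the letters and is not a bound site.

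Of the Fc receptors 6 of 6 were tested, and their median was 0.11. Fcgr1, the high-affinity IgG receptor of monocytes and macrophages, read 2.27, 2.34, 2.36 and 1.63 in the Pcgf1 shRNA cultures, against 2.45, 2.74, 3.15 and 2.14 in the controls. All 4 mice were lower with the Pcgf1 shRNA, from −0.19 in mouse 1 to −0.79 in mouse 3, and the mean difference of −0.47 (72.2% of control) did not pass (adjusted p 0.503, or 0.0688 with mouse as a block). Fcgr2b, the inhibitory IgG receptor, went the other way and read 4.36, 4.41, 4.52 and 3.52 with the Pcgf1 shRNA, against 4.17, 3.96, 4.17 and 3.23 with the control. Its difference was positive in every mouse, 0.19 to 0.45, with a mean of 0.32 that did not pass (adjusted p 0.699, or 0.0682 with the block). The activating IgG receptors Fcgr3 and Fcgr4 differed by 0.16 and 0.16, each higher in 3 of 4 mice. The extracellular parts of Fcgr2b and Fcgr3 are nearly the same, and 1 probe may read both.

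Fcer1a and Ms4a2 are the alpha and beta chains of the high-affinity IgE receptor of mast cells and basophils. Fcer1a read −2.85, −1.93, −2.86 and −0.44 in the Pcgf1 shRNA cultures, against −2.21, −1.64, −2.31 and −0.54 in the controls. Mouse 4 stood well above the other mice in both groups, and the differences of mice 1 to 3 were negative while that of mouse 4 was 0.11. Ms4a2 was dim on all arrays and differed by 0.06, with mice 2 and 4 above mice 1 and 3 in both groups. Neither passed (adjusted p 0.873 and 0.968). The mast cell and basophil markers had a median of −0.26 over 13 tested genes, of which 2 fell without a block and 5 with it; their summed linear level was 45.8 to 62.7 in the Pcgf1 shRNA and 55.4 to 80.3 in the control cultures, Mcpt1 and Mcpt2 were too dim to be tested, and the markers' part in the values of Fcer1a and Ms4a2 was not tested.

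The shared signal proteins had a median of −0.17 over 5 genes. Fcer1g, the gamma chain of the Fc receptors, read 4.91, 4.79, 4.37 and 4.07 with the Pcgf1 shRNA, against 5.23, 5.20, 5.07 and 4.23 with the control. Tyrobp, the chain of Trem2, Treml4 and the Pilrb receptors, read 5.15, 4.97, 4.91 and 4.42, against 5.33, 5.13, 5.39 and 4.73. Both chains were lower in all 4 mice, by means of −0.39 and −0.28, and their groups overlapped (adjusted p 0.613 and 0.616, or 0.0879 and 0.112 with the block). Ptpn6, the phosphatase of the ITIM receptors, was also lower in every mouse, with a mean difference of −0.17. Syk was lower in 3 of 4 mice (−0.15), and Hcst, the neighbour of Tyrobp on chromosome 7, was higher in 3 of 4 (0.11).

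**Figure D2:**
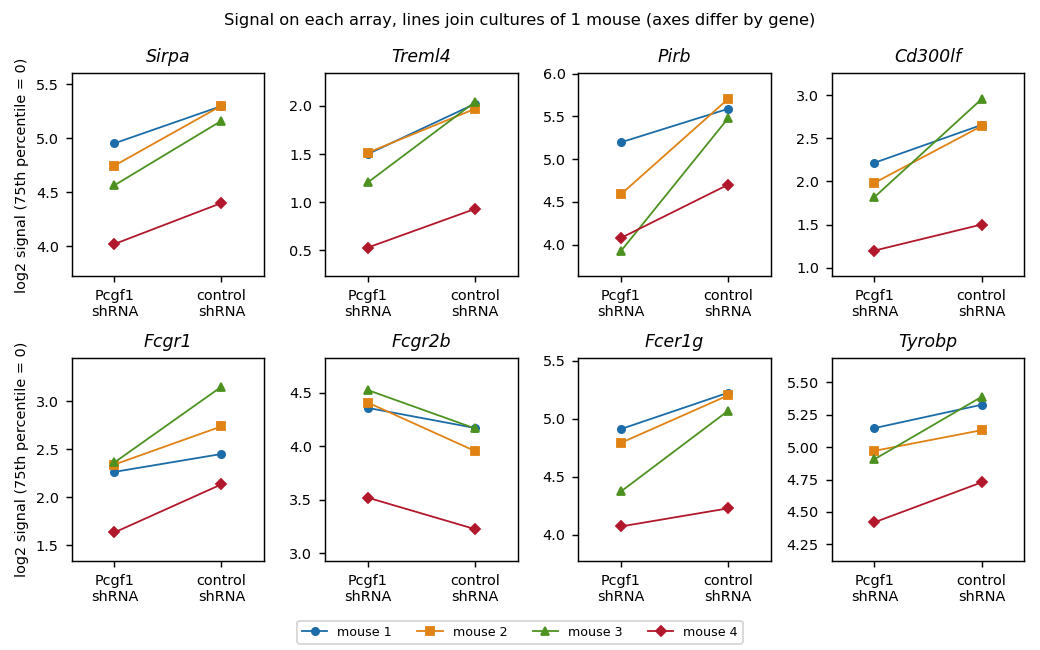
Log2 signal (75th percentile of the array = 0) of 8 members in each culture, Pcgf1 shRNA on the left and control shRNA on the right, with a line joining the cultures of 1 mouse; axes differ by gene. In Sirpa, Treml4, Pirb, Cd300lf, Fcgr1, Fcer1g and Tyrobp every line ends higher at the control, in Fcgr2b every line ends lower, and both ends of the mouse 4 line lie below those of mice 1 and 2 in all 8 panels.

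All 4 tested CD300 receptors, several of which bind lipids exposed on dying cells, had a mean difference below 0, with a median of −0.19. Cd300lf, a receptor that is largely inhibitory, read 2.22, 1.98, 1.82 and 1.20 in the Pcgf1 shRNA cultures, against 2.65, 2.64, 2.95 and 1.50 in the controls. It was lower in every mouse, from −0.30 in mouse 4 to −1.13 in mouse 3, or 64.5% of control on average (log2 difference −0.63, adjusted p 0.511, or 0.0667 with the block). Cd300a, also inhibitory, was lower in every mouse by smaller steps, −0.35 to −0.04. A dimmer probe of Cd300a was higher with the Pcgf1 shRNA in mouse 2 (−3.16 against −3.43) and mouse 4 (−3.65 against −3.78). The activating Cd300lb and Cd300ld differed by −0.07 and −0.23, and the direction was not shared by the mice. Cd300ld read −2.15, −2.42, −3.00 and −3.48 with the Pcgf1 shRNA, against −1.79, −2.02, −2.66 and −3.65 with the control, so that the mice lay further apart than the shRNAs did. CD300 genes are close relatives, which 1 probe may not separate.

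Of 5 Siglecs 2 were tested. Siglecg, an inhibitory receptor best known from B cells, read −1.27, −1.26, −0.64 and −1.32 in the Pcgf1 shRNA cultures, against −1.01, −0.97, −0.27 and −0.81 in the controls. Every mouse was lower and mouse 3 was the highest of both groups; the mean difference of −0.36 did not pass (adjusted p 0.552, or 0.0537 with the block). Of the B cell markers Ms4a1, Ebf1, Pax5 and Blk were too dim to be tested, and the summed level of the 4 measured ones was 1.43 to 1.89 in the Pcgf1 shRNA and 1.78 to 2.18 in the control cultures. Cd33 differed by 0.07, with mice on both sides of 0. Siglec1, a macrophage receptor, was above background on 3 of 4 Pcgf1 shRNA and 2 of 4 control arrays with its brighter probe, where the Pcgf1 shRNA culture of mouse 3 read −2.28 and the other 7 arrays −6.28 to −5.11. Siglece was above background on 2 of 4 arrays of each group, and Siglech, a marker of plasmacytoid dendritic cells, on 1 of 4 of each group, the arrays of mouse 4. These 3 were not tested, and Treml2, Cd300c, Cd200r4 and Milr1 had no matched probe.

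Split by role, the activating receptors had a median of −0.20 over 14 tested genes, with 9 below 0. The inhibitory receptors had a median of −0.28 over 11 tested genes, with 7 below 0. Roles were assigned gene by gene, with Cd33 (0.07) counted as inhibitory, and were not tested in these cells. In the fit with mouse as a block 1 of each was lower, Treml4 among the activating and Sirpa among the inhibitory receptors. In RefSeq's annotation of GRCm38.p6, Fcgr2b, Fcgr4 and Fcgr3, in that order on chromosome 1 with no other protein-coding gene between them, differed by 0.32, 0.16 and 0.16. Trem1 and Trem3, next to each other on chromosome 17, differed by 0.14 and 0.18, whereas Treml4, which follows Trem3 directly, differed by −0.55, and Trem2 and Treml1 further along by −0.47 and −0.28. Tyrobp and Hcst, adjacent on chromosome 7, lay on opposite sides of 0. Neighbours with similar sequence can share probe signal, so they are not independent of each other.

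**Figure D3:**
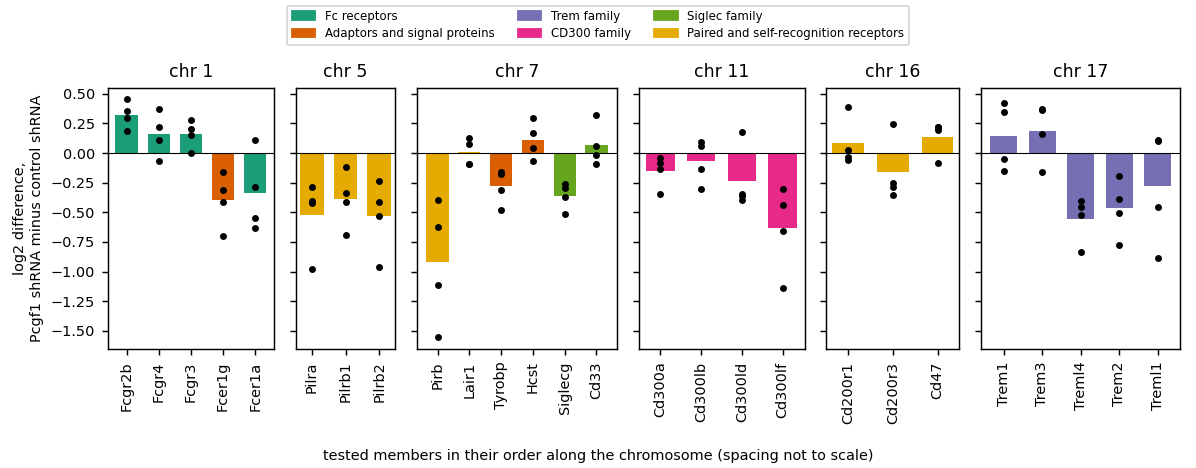
Mean log2 difference between Pcgf1 shRNA and control shRNA cultures (bars, coloured by family) and the 4 within-mouse differences (points) of tested members on 6 chromosomes, in their order along each chromosome but not to scale. On chromosome 1 Fcgr2b, Fcgr4 and Fcgr3 lie above 0 and Fcer1g and Fcer1a below; on chromosome 5 all 3 Pilr genes lie below 0; on chromosome 17 Trem1 and Trem3 lie above 0 and Treml4, Trem2 and Treml1 below.

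Mouse 4 stood apart from the other mice. On both arrays of mouse 4 the signal was the lowest of its group for 25 of the 31 members (80.6%), where this held for 27.3% of 17252 genes, a count made after the values were seen. Monocyte and macrophage markers ran low in the same mouse, with a summed linear level of 85.9 in the Pcgf1 shRNA and 102 in the control culture of mouse 4, against 101 to 148 and 197 to 210 in the cultures of the other mice. The neutrophil sum was also lowest in mouse 4, with 56.5 in the Pcgf1 shRNA and 174 in the control culture. In the other mice it was 125 to 155 and 249 to 438. A sum follows its brightest genes, and the neutrophil markers that passed with mouse as a block were split in the controls. Chil3, S100a8, S100a9, Camp, Mmp8, Fpr1 and Cxcr2 read lowest in the control of mouse 4. Ngp, Ltf, Stfa3 and Fcnb read above mice 1 and 2 there, as Ngp at −3.70 against −4.79 and −4.20. The erythroid sum was highest in mouse 4, with 182 and 249.6, against 47.6 to 117 and 115 to 205. Treml1 and Fcer1a were the members that read highest in mouse 4 in both groups. Megakaryocyte and platelet markers summed to 152 in the Pcgf1 shRNA and 134 in the control culture of mouse 4. In the other mice they summed to 45.1 to 88.6 and 71.5 to 77.3. The mast cell and basophil sum of mouse 4, 55.5 and 61.0, lay within the range of the other mice. Of the mast cell and basophil markers that passed with the block, Il1rl1 read highest in mouse 4 in both groups (2.87 and 3.16). Mcpt4, Cma1, Tpsb2 and Tph1 did not. The part of these cell types in the members' values was not tested. Without mouse 4, 18 of 31 members (58.1%) were lower in all 3 remaining animals, where 23.7% of genes were, and the members' median was −0.27.

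**Figure D4:**
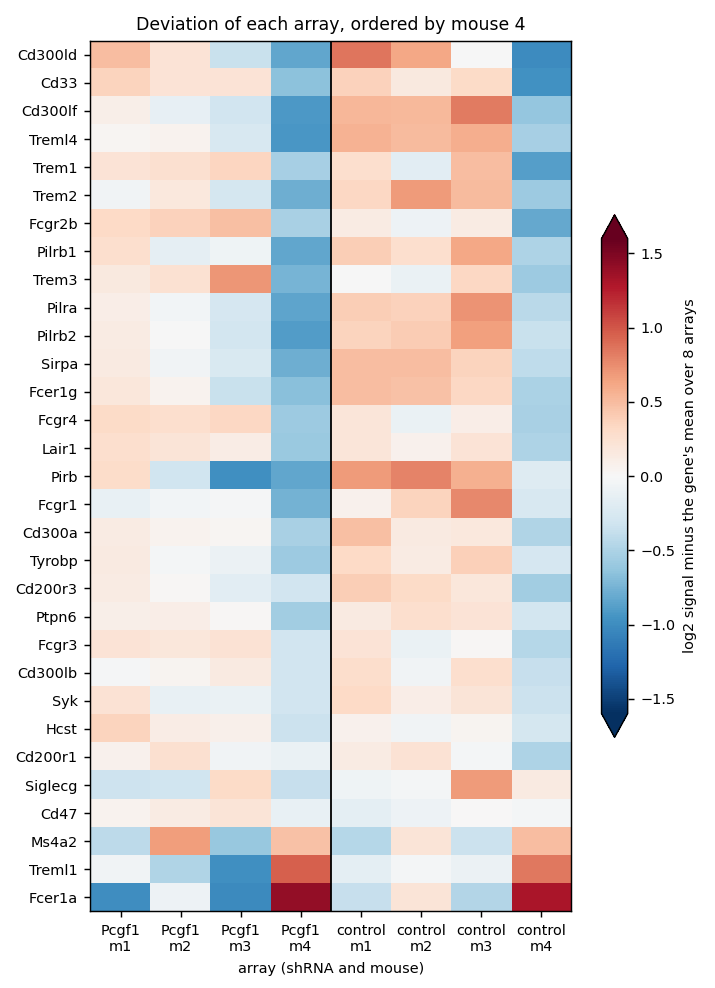
Log2 signal of each array minus the gene's mean over the 8 arrays, for the 31 tested genes ordered by their level in mouse 4; the columns are the Pcgf1 shRNA cultures and then the control shRNA cultures of mice 1 to 4 (m1 to m4). The m4 columns are blue for most genes in both groups and red for Ms4a2, Treml1 and Fcer1a.

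Marker genes of cells that carry these receptors were read beside them. Monocyte and macrophage markers had a median of −0.49 over 14 tested genes, of which 13 lay below 0, 8 were lower in all 4 mice, none passed in limma without a block (6 lower at an unadjusted p under 0.05) and 4, among them Ccr2, Irf8 and Klf4, were lower with it. Their summed level was 85.9 to 148 in the Pcgf1 shRNA and 102 to 210 in the control cultures, no marker was below background on every array of a group, and C1qa was too dim to be tested. By mouse their median was −0.46, −0.65, −0.78 and −0.23, lowest in mouse 3 as for the members. Mouse 3 also had the lowest median of the relatives (−0.55) and of the megakaryocyte (−0.58), erythroid (−1.49), eosinophil (−1.19), B cell (−0.39), ITAM (−0.08), ITIM (−0.06) and plasmacytoid dendritic cell (−0.16) lists. The lowest median was that of mouse 4 for the neutrophil (−2.30), T and NK cell (−0.37) and stroma and endothelium (0.25) lists. It was that of mouse 1 for the mast cell and basophil list (−0.41) and of mouse 2 for the stem and progenitor list (−0.06). Neutrophil markers had a median of −1.80 over 13 tested genes; 4 fell without a block, 10 were lower and 1, Cxcr2, higher with it (0.54, adjusted p 0.0194), their summed level was 56.5 to 155 in the Pcgf1 shRNA and 174 to 438 in the control cultures, and Ngp and Ltf were above background on no Pcgf1 shRNA array. Plasmacytoid dendritic cell markers summed to 27.5 to 34.3 and 28.5 to 34.9, and 2 of 10 were lower and 1 higher with the block only. Eosinophil markers had a median of −0.80 over 6 tested genes, with 2, Prg2 and Prg3, lower (−1.87 and −1.70) and 1 higher with the block, and erythroid markers a median of −0.67, with 9 of 9 below 0 and 2 lower with the block. The progenitor marker Cd34 rose by 0.94 (adjusted p 0.0251), but the median of its list was −0.03 over 9 tested genes, 5 of them below 0. With the block 2 genes of that list were higher and 1, Ly6a, was lower (−0.68, adjusted p 0.0285). In cultures of mixed cells, fewer cells of a type and less RNA per cell cannot be told apart, and the part of these markers in the members' differences was not tested.

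**Figure D5:**
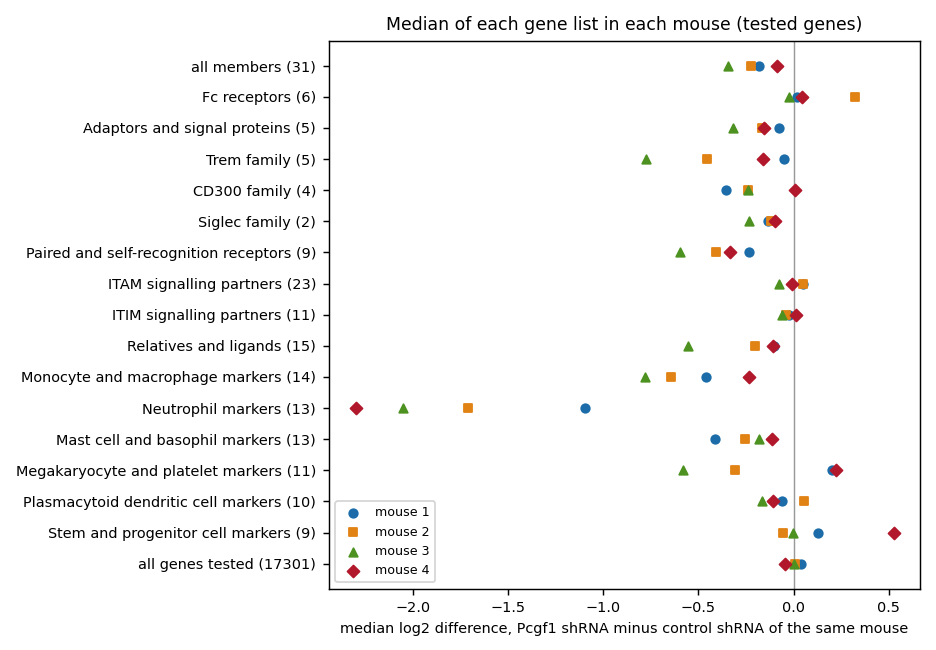
Median log2 difference between the Pcgf1 shRNA and control shRNA culture of each mouse (1 symbol per mouse) for the 31 members, their families, the signalling and relative lists and 6 marker lists, with the number of tested genes in brackets; all 17301 genes are in the last row. The members' medians lie between −0.34 and −0.09, those of the monocyte and macrophage markers between −0.78 and −0.23 and those of the neutrophil markers between −2.30 and −1.10.

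The proteins that act downstream of the receptors had medians close to 0. Of 25 ITAM signalling partners 23 were tested, with a median of −0.00, and none passed in limma without a block (4 higher and 4 lower at an unadjusted p under 0.05). With mouse as a block Fgr, a Src-family kinase of myeloid cells, was among the lower genes (−1.08, adjusted p 0.0334), and Tec, a kinase that acts on phospholipase C gamma, was higher (0.37, adjusted p 0.0477). Fgr read −0.20, −0.18, −1.01 and −1.11 in the Pcgf1 shRNA cultures, against 0.56, 0.91, 0.73 and −0.37 in the controls. All 4 mice were lower, and the groups overlapped only through the control of mouse 4. The blocked call of Fgr was lost without mouse 1, 2 or 4 (adjusted p 0.0698 to 0.135), and that of Tec when any 1 mouse was left out. Malt1, a paracaspase downstream of ITAM receptors, differed by −0.44 and passed neither fit (adjusted p 0.236, or 0.058 with the block), but passed without mouse 4 and no block (−0.52, adjusted p 0.0453).

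All 11 ITIM signalling partners were tested, with a median of −0.04, and none passed in limma without a block (1 higher and 1 lower at an unadjusted p under 0.05). Sh2d1b1, an adaptor of the SLAM receptors that was counted in this list, was lower with the block (−1.36, adjusted p 0.308 without and 0.0165 with it). The gene was dim but above background on every array. It read −3.19, −3.29, −3.26 and −4.76 with the Pcgf1 shRNA, against −2.11, −2.17, −1.37 and −3.40 with the control, lower in each mouse, and the blocked call was lost without mouse 2 or 4 (adjusted p 0.092 and 0.0575). Csk, a kinase that holds Src-family kinases inactive, differed by 0.18 and passed neither fit.

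Among 25 relatives and ligands 15 were tested, with a median of −0.25. Fcgrt, the neonatal Fc receptor that recycles IgG, fell in the Pcgf1 shRNA cultures and was the only gene of this list to pass without a block. It read −2.05, −2.18, −1.94 and −1.61 with the Pcgf1 shRNA, against −1.21, −1.16, −0.63 and −0.93 with the control. The groups did not overlap, and the difference was −0.96 ± 0.16 (SE, adjusted p 0.0471, or 0.0184 with the block), or 51.3% of control; without mouse 1, 2 or 3 and no block it did not pass (adjusted p 0.19 to 0.38), and the blocked call was lost without mouse 1, 2 or 4 (0.0537, 0.0966 and 0.0503). Pecam1, an ITIM-bearing adhesion receptor of leukocytes, platelets and endothelium, was higher with the block only (0.51, adjusted p 0.266 without and 0.0313 with it) and positive in all 4 mice; that call was lost when any 1 mouse was left out (adjusted p 0.0611 to 0.152).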

How the data were processed

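Total RNA of 8 cultures (4 Pcgf1 shRNA and 4 control shRNA) was labelled with Cy3 and hybridised to one-colour Agilent arrays, read with Agilent Feature Extraction 10.1 per the submitters' processing notes. The deposited scanner files give each spot's intensity after background subtraction and without scaling between arrays, per the file headers. The authors also deposited a table of log2 values, which are centred per probe (column medians −0.20 to 0.11) and otherwise track the scanner values (r 1.00 and slope 1.00 between column differences over 9272 bright probes). Here the log2 intensity was set relative to each array's 75th percentile, and 242 non-uniform spots were left out. Of 41174 probes 24375 were named through RefSeq accessions (GRCm38.p6 annotation), and 22747 were kept, those flagged well above background in every array of either group. The brightest kept probe stood for a gene. For 11 tested members with several probes, the mean differences of all probes had 1 sign. In single mice the probes of a gene could differ in sign, as for Cd300a. The probes of Siglec1, which was not tested, had opposite signs (−0.51 and 0.70).

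The comparison used limma 3.58.1 under R 4.3.3 (two-sided, Benjamini-Hochberg over 17301 genes, adjusted p 0.05) without a block. The procedure was also run on simulated data in which genes varied independently, which does not cover genes that move together. Cultures with the same number come from the same mouse, per the labels, and deviated from their group means together (r 0.41 to 0.64). The fit with mouse as a block therefore stands beside the fit without a block. Each of 2 slides, identical to the scan batches, held both groups (members' median −0.17 and −0.14). The members and lists were chosen with earlier results of these data known. Named were all members, Pcgf1 and the 2 genes with the smallest p of each further list; of these, several markers and Runx1 are not described, and other markers named with a call were chosen after their values were seen. Alternatives covered the block, the slide, normalization, background, filters, probe averaging, the value table, array weights and leaving out each mouse.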

Additional observations from a re-analysis of the deposited data

Results flagged for a closer look

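In 62 sets of 4 arrays (31 members in each group), 14 had 1 array whose gap to its nearest neighbour took up most of the range (Dixon's criterion at 95%), where chance gives about 1 in 20; the members are not independent of each other. In 13 of the 14 the array was that of mouse 4. In the Pcgf1 shRNA group mouse 4 was the lowest for Fcgr1 at 1.63 (other mice 2.27 to 2.36), Fcgr2b at 3.52 (4.36 to 4.52), Fcgr3 at 3.82 (4.30 to 4.35) and Fcgr4 at −0.99 (−0.15 to −0.08). It was also the lowest there for Ptpn6 at 4.23 (4.81 to 4.90), Trem1 at −1.07 (−0.32 to −0.20), Cd300a at 1.17 (1.73 to 1.82) and Cd33 at −0.0897 (0.78 to 0.92). In the control group mouse 4 was the lowest for Fcer1g at 4.23 (5.07 to 5.23), Treml4 at 0.93 (1.97 to 2.04), Cd33 at −0.41 (0.72 to 0.94) and Sirpa at 4.40 (5.16 to 5.30), and the highest for Treml1 at 5.33 (4.33 to 4.46). The exception was Siglecg, for which the Pcgf1 shRNA culture of mouse 3 was the highest at −0.64 (−1.32 to −1.26).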

How the results depend on the processing

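Across 17 alternatives, 506 of 527 values of members kept their direction and their side of the threshold, 4 came to pass the test and 17 changed sign. Much of this was fixed in advance, so the count is no measure of robustness. The mouse and slide blocks and the filter settings left the members' differences unchanged, and each leave-out difference entered with and without the block. Where 0 of all genes passed, as without the filter or without mouse 2, no member could pass. The sign changes fell on 5 members with differences of at most 0.08 in size. Ms4a2 was −0.067 with normexp background correction and −0.079 to 0.16 with 1 mouse left out; Cd300lb was 0.014 with quantile normalization and −0.125 to 0.0083 with 1 mouse left out; Lair1 was −0.016 with quantile normalization, −0.026 with normexp, −0.0019 in the authors' table and −0.036 to 0.038 with 1 mouse left out (−0.0196 without mouse 1); Cd33 was −0.016 to 0.12 and Cd200r1 −0.021 to 0.13 with 1 mouse left out. The cause was not tested. The count of lower members was 0, but 2 with the replicate block of mouse, 1 with array weights and 0 to 1 with 1 mouse left out. The block also gave 1 higher and 2 lower ITAM partners, 1 lower ITIM partner and 1 higher relative; array weights gave 1 and 3, 1 higher and 1 lower, and 3 lower relatives. With 1 mouse left out there were 0 to 1 lower genes in each of these lists. No lower relative passed with normexp or without the filter on dim probes (0 and 0). The count of members lower in every mouse was 14, but 13 with quantile normalization or the mean over probes and 16 with normexp. With 1 mouse left out 14 to 18 were lower in all remaining mice. The count of members higher in every mouse was 1, but 2 with quantile normalization, normexp or the mean over probes, and 1 to 5 were higher in all remaining mice with 1 left out; these counts were chosen after seeing the data. Pcgf1 stayed at −1.36 without the filter but did not pass (adjusted p 0.104), and at −1.38 to −1.34 with 1 mouse left out, where the adjusted p without a block was 0.113, 0.352 and 0.0904 without mouse 1, 2 and 3.

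Over all genes 132 passed (78.0% higher), 921 with the block (54.6%), 157 with the slide as a block (69.4%), 72 with normexp (66.7%), 1652 with array weights (58.2%) and 0 of 32969 without the filter (2199 unadjusted). With 1 mouse left out 0 to 363 passed without a block and 0 to 306 with it. In the blocked fit without mouse 2, 0 of 17300 genes passed, Pcgf1 included (adjusted p 0.0896). Every blocked call was therefore lost in that setting, whatever the gene. Probes not above background, as for 3 Siglecs, give no difference.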
